A study of Mus musculus with 20 samples.

Results

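Gas5, Snhg1, Snhg3, Snhg6, Snhg8 and Snhg12 are 6 mouse genes whose introns carry small nucleolar RNAs (snoRNAs). They were chosen by name as snoRNA host genes whose spliced RNA is known to be degraded quickly. No rule on their values was used, but earlier results of these data were known at the time. The gene table listed 4 of the 6 among its 37620 genes, and the junction table held reads for all 6, in 112 of its 554616 exon-exon junctions, of which 45 averaged at least 5 reads per mouse. Snhg6 and Snhg8 had no row of their own in the gene table. Their junctions had no gene name and were found by position, Snhg8 between Prss12 and a start site matched exactly to the RefSeq promoter, and Snhg6 around the snoRNA gene AC102570.1, which RefSeq by its place calls Snord87. Ribosomal RNA-depleted total RNA of bulk bone marrow cells was sequenced from 20 mice. Recipients had been transplanted with pooled marrow of transgenic donors that carried the reverse tetracycline transactivator (rtTA) and a doxycycline-inducible U2AF1 transgene, either U2AF1(WT), the unmutated form, or U2AF1(S34F), the mutant found in myelodysplastic syndromes. All mice received doxycycline chow (625 ppm) for 7 days, more than 6 weeks after transplantation, and an intravenous infusion of sudemycin D6, a small molecule that modulates the splicing factor SF3B1, or of vehicle, a cyclodextrin solution, on the last 5 of these days. The 4 groups of 5 mice were thus U2AF1(WT) with vehicle, U2AF1(WT) with sudemycin, U2AF1(S34F) with vehicle and U2AF1(S34F) with sudemycin. Single mice are named by treatment (Veh or Sud), transgene (WT or MUT, the latter for S34F) and number. Donors and recipients were young adults, the recipients were lethally irradiated congenic wild-type mice, and each transgene was expressed in addition to the cells' own U2af1. Because marrow of several donors was pooled, p-values measured the spread between recipient mice.

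In these genes the exons are short and in most members carry no conserved reading frame, while the introns hold the products. After splicing, the excised intron is trimmed to a snoRNA, which guides chemical modification of ribosomal RNA (C/D box snoRNAs guide 2′-O-methylation, H/ACA box snoRNAs guide pseudouridylation). The spliced host RNA carries early stop codons and is degraded while being translated, by nonsense-mediated decay (NMD), and many hosts start with the pyrimidine tract that also marks ribosomal protein mRNAs. Gas5 was named for its accumulation in growth-arrested cells. U2AF1 reads the AG dinucleotide that ends an intron, and the S34F form is known to favour 3′ splice sites with CAG over those with TAG. SF3B1 acts at the branch point just upstream.

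The 25 snoRNA genes annotated inside the 6 hosts were unevenly spread. Gas5 (ENSMUSG00000053332, chr1:162964553-162968670, plus strand of NCBI build 37) held 9, Snhg1 (ENSMUSG00000090867, chr19:8797986-8800932, plus) held 8 and Snhg12 (ENSMUSG00000086290, chr4:131864593-131866939, plus) held 4. Snhg3 (ENSMUSG00000085241, chr4:131903929-131909601, minus) held Snora73a and Snora73b, the U17 snoRNAs, which act in processing of ribosomal RNA rather than its modification. Its junctions also carried the name of Rcc1, the chromatin-bound exchange factor of Ran, whose annotated transcripts share them, so that reads of both genes cannot be told apart there. Snhg6 (chr1:9932230-9934101, minus) and Snhg8 (chr3:123210578-123211254, minus), whose limits here are those of their junctions, held 1 each, AC102570.1 and AC124005.1, the latter being Snora24 by its place in RefSeq. The sequences below show a C/D box snoRNA of Gas5 and one of Snhg1, with the C box TGATGA and the D box CTGA in capitals, and the H/ACA box snoRNAs of Snhg8 and Snhg12, with the ACA before the last 3 bases in capitals.
SNORD44 in Gas5, chr1:162966813-162966872, plus: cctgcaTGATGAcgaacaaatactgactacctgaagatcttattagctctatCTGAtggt
SNORD25 in Snhg1, chr19:8798486-8798550, plus: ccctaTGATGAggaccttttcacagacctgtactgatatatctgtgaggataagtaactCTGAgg
AC124005.1 in Snhg8, chr3:123210855-123210984, minus: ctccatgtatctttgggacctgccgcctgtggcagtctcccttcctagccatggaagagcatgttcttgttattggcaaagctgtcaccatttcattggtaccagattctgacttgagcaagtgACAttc
Snora16a in Snhg12, chr4:131865380-131865515, plus: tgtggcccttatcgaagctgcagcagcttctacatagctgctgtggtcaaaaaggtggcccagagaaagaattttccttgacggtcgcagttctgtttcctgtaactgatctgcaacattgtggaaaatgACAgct
A C box near the 5′ end and a D box near the 3′ end were found in 14 of the 25 resident snoRNAs and an ACA at the required distance from the end in 5, while 6 held neither in these exact letters. Among all 311 annotated snoRNA genes of the same chromosomes, 10.6% held the C and D boxes and 17.7% the ACA. Both snoRNAs of Snhg3 are 205 nucleotides long and differ at 7 positions (96.6% identity), and only these positions tell their reads apart. Their differing bases are in capitals.
Snora73a, chr4:131908690-131908894, minus: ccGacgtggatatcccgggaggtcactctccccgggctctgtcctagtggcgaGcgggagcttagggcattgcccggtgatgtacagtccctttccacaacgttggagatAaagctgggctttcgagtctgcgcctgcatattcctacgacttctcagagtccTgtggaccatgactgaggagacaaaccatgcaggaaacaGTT
Snora73b, chr4:131908237-131908441, minus: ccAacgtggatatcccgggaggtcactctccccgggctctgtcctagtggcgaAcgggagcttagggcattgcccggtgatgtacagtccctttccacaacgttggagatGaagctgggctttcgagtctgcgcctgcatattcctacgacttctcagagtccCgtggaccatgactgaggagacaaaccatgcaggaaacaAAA

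The exons joined by the observed junctions were short. Gas5 had 10 internal exons of 28 to 53 nucleotides (median 39), Snhg1 had 7 of 33 to 81 (median 39), and the other members had 1 to 3 of 36 to 108. A single 126-base read could therefore cross several junctions of Gas5 or Snhg1 and was then recorded at each. The annotation, GENCODE vM1, also listed transcripts with unspliced introns, so that annotated exons covered 91.3% of the span of Gas5 and 100% of that of Snhg1, against 69.3% for Snhg12 and 17.4% for Snhg3. In Snhg12, 3 of the 4 resident snoRNA genes lay inside annotated exons. Whether reads over such snoRNA genes were counted for the host is not known. The gene reads of Gas5, Snhg1 and in part Snhg12 could therefore include reads from introns, while junction reads came from spliced RNA only. This is why both are given for each member.

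Each mouse had 41145892 to 62138138 reads assigned to genes (median 51836276) and 34384214 to 64813149 reads at junctions (median 52634698). Summed over its junctions, Gas5 had 5596 to 24107 reads per mouse (median 11926) and Snhg1 had 1333 to 5276 (median 3065.5). The other members were covered more thinly, with medians of 870 reads for Snhg8, 679 for Snhg6, 381.5 for Snhg12 and 281 for Snhg3, whose lowest mouse had 128. Values are given as CPM, reads relative to the size of the library, with sizes scaled between libraries by the trimmed mean of M-values. On the scale of gene CPM per kb of annotated exon, the level of Gas5 was highest, with a median of 31.0 over the 20 mice (19.4 to 44.6), and did not overlap that of Snhg1 at 13.2 (8.73 to 15.9). Snhg12 at 6.26 (4.05 to 9.66) overlapped the range of Snhg1, and Snhg3 at 4.14 (2.64 to 5.83) overlapped that of Snhg12. By the CPM of each member's strongest single junction, a quantity that does not depend on exon annotation, the order was Gas5 at 27.2, Snhg8 at 8.54, Snhg1 at 7.96, Snhg6 at 6.01, Snhg3 at 2.27 and Snhg12 at 2.24. The range over mice of Gas5 (12.8 to 49.01) lay above those of the other hosts except Snhg1 (2.96 to 14.6), with which it overlapped. From Snhg8 downwards each neighbour overlapped the next, and Snhg3 (1.08 to 3.86) and Snhg12 (0.991 to 3.50) also overlapped Snhg1 and Snhg6 (2.24 to 9.39).

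The genotypes, which also differed in sex as given below, were first compared by junction reads in vehicle-treated mice. Spliced RNA of 4 of the 6 hosts was higher with U2AF1(S34F) than with U2AF1(WT): Snhg6 1.96-fold, Gas5 1.68-fold, Snhg3 1.62-fold and Snhg1 1.41-fold (edgeR quasi-likelihood test, FDR<10%). The Snhg3 value sums junctions shared with Rcc1 and, here and below, cannot be given to Snhg3 alone. Of all 13150 genes with junction reads tested, 32.6% were called and 16.6% were called higher. Snhg8 and Snhg12 were not called. The median log2 difference of the 6 hosts was 0.60, against 0.0078 for all genes tested.

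Gas5, the most abundant host, had 234, 207, 198, 168 and 196 junction CPM in the 5 U2AF1(WT) mice, against 354, 408, 304, 303 and 321 in the 5 U2AF1(S34F) mice. Every mutant mouse was above every WT mouse, and the log2 difference was 0.75 ± 0.104 (SE; FDR 0.000334). Snhg6, around AC102570.1, had 10.8, 8.72, 9.24, 6.09 and 11.8 CPM against 22.4, 18.2, 15.5, 18.8 and 17.04. These groups did not overlap either, with a log2 difference of 0.97 ± 0.161 (FDR 0.000965). Snhg3, host of U17, had 4.18, 4.90, 3.89, 2.71 and 3.75 CPM against 8.25, 6.15, 6.34, 5.07 and 5.83. The lowest mutant mouse was just above the highest WT mouse, and the log2 difference was 0.69 ± 0.182 (FDR 0.0134). Snhg1 had 50.2, 57.1, 46.9, 33.0 and 54.9 CPM against 74.0, 89.3, 63.7, 56.2 and 59.6. Here 1 mutant mouse lay below the highest WT mouse, and the log2 difference was 0.50 ± 0.151 (FDR 0.0291). Snhg8 had 17.2 ± 1.29 CPM (SD, n = 5) in U2AF1(WT) and 14.6 ± 2.20 in U2AF1(S34F) mice, with overlapping groups and a log2 difference of -0.24 ± 0.12 (FDR 0.155). Snhg12 had 7.98 ± 1.48 and 7.52 ± 1.73 CPM, a log2 difference of -0.09 ± 0.173 (FDR 0.746).

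The same comparison under sudemycin used 10 other recipient mice and gave the same 4 hosts. It has the same pooling of donors and the same confounding of sex with genotype, given below. It is therefore no independent test of the mutation. Gas5 had 208, 114, 125, 187 and 174 junction CPM in U2AF1(WT) and 267, 241, 271, 323 and 268 in U2AF1(S34F) mice, a log2 difference of 0.76 ± 0.154 (FDR 0.00452). Snhg6 had 9.10, 6.61, 8.04, 7.97 and 11.2 CPM against 16.1, 15.4, 15.02, 19.3 and 16.2, a log2 difference of 0.93 ± 0.139 (FDR 0.000892). For both, all mutant mice were again above all WT mice. Snhg3 had 4.59, 2.67, 2.82, 3.60 and 3.65 CPM against 6.14, 5.80, 5.81, 5.94 and 6.23, also without overlap (0.78 ± 0.163, FDR 0.00538). Snhg1 had 65.7, 29.1, 28.7, 42.6 and 31.7 CPM against 59.0, 50.8, 56.1, 66.6 and 66.0. The WT mouse Sud_WT 6 was within the mutant range of Snhg1, and the groups overlapped (0.59 ± 0.205, FDR 0.0548). This call was lost without any of the mice Sud_MUT 10 or 12 or Sud_WT 8, 9 or 12 (FDR 0.11 to 0.116). Snhg8, at 16.4 ± 2.93 and 16.2 ± 2.32 CPM, and Snhg12, at 7.44 ± 3.23 and 7.30 ± 1.44 CPM, were not called (log2 -0.01 and -0.03, FDR 0.96 and 0.958). Thus 4 of 6 hosts were called, against 30.9% of 13037 genes in either direction and 14.8% higher, and the median of the 6 was 0.68 against -0.020 for all genes.

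**Figure D1:**
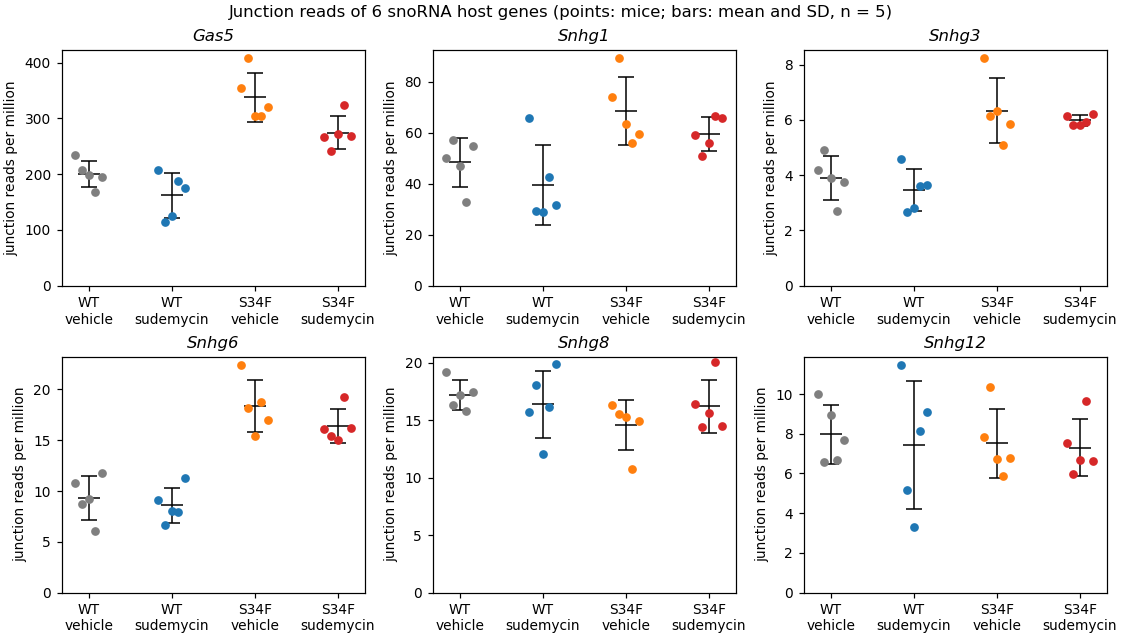
Junction reads in CPM (vertical axis, from 0) of the 6 hosts in each mouse (points) of the 4 groups (horizontal axis), with mean and SD (bars, n = 5). The U2AF1(S34F) points of Gas5, Snhg3 and Snhg6 lie above all U2AF1(WT) points under the same treatment, whereas the groups of Snhg1, Snhg8 and Snhg12 overlap in at least one treatment.

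Several features of the libraries moved with genotype and their part in these differences was not tested. Every U2AF1(WT) mouse had female-type expression (Xist 859 to 1580 CPM, summed Y-linked genes 0 to 0.0805 CPM) and every U2AF1(S34F) mouse had male-type expression (Xist 0.0201 to 0.146, Y-linked genes 192 to 257), so sex and genotype cannot be told apart in any comparison between genotypes. Of 4 proliferation genes, 2 were called higher in U2AF1(S34F) mice under vehicle and 4 under sudemycin, and their summed level was 1843 to 3282 CPM in WT and 2959 to 3776 in mutant mice under vehicle, and 1964 to 2676 and 3126 to 3573 under sudemycin. The 7 neutrophil markers summed to 40210 to 45250 CPM against 51670 to 84230 under vehicle (3 called higher) and to 37730 to 64200 against 46640 to 70900 under sudemycin (1 called higher). The 6 B cell markers summed to 34.6 to 121.6 CPM in WT and 14.2 to 119.9 in mutant mice under vehicle (none called) and to 21.7 to 141.8 and 28.0 to 42.9 under sudemycin (4 called lower). Of 7 erythroid markers none was called under vehicle and 3 were lower under sudemycin, and of 3 megakaryocyte markers 1 and 2 were lower. Of 4 monocyte markers 0 were higher and 1 lower under vehicle and 2 and 1 under sudemycin, and of 4 T and NK cell markers 2 and 1, then 0 and 2. Of 4 progenitor markers 1 was higher and 1 lower under vehicle, and 0 were called under sudemycin. No marker of the lists used was at 0 in all mice. In bulk marrow, fewer cells of a type and less RNA per cell cannot be told apart. Mutant libraries were also deeper, with median gene reads of 55758927 against 47756240 under vehicle. Under sudemycin these medians were 54671379 and 50091886. For every junction count of 1 there were 1.08 to 1.49 counts of 2 in WT and 1.45 to 1.99 in mutant mice under vehicle. Under sudemycin there were 1.39 to 1.65 and 1.18 to 1.64.

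Gene reads gave another picture. None of the 4 hosts with a gene row differed between genotypes in gene reads under vehicle (0 of 4 called by edgeR and none with an unadjusted p below 0.05, against 39.5% of 14817 genes called) or under sudemycin (0 of 4 and none, against 36.8% of 14677). With DESeq2, none was called in either comparison. Gas5 had 142, 105, 130, 124 and 136 gene CPM in vehicle-treated U2AF1(WT) mice, against 162, 168, 110, 96.9 and 115 in U2AF1(S34F) mice. The means were 127.4 ± 14.3 and 130.2 ± 32.2, a log2 difference of 0.01 ± 0.15 (FDR 0.956), and the groups overlapped widely. Under sudemycin the means were 99.9 ± 24.6 and 116.6 ± 17.9 (0.18 ± 0.163, FDR 0.432). Snhg1 had 46.4, 44.1, 45.7, 38.9 and 46.7 gene CPM against 46.8, 45.2, 30.4, 26.7 and 32.2 under vehicle, where 3 of the 5 mutant mice were below all WT mice. Its log2 difference was -0.31 ± 0.144 (FDR 0.121), opposite in sign to that of its junction reads, and it passed the threshold without Veh_MUT 1 (-0.42, FDR 0.038) or Veh_MUT 3 (-0.39, FDR 0.0525). Under sudemycin it was 0.01 ± 0.135 (FDR 0.952). Snhg3 had 3.60 ± 0.73 and 4.65 ± 0.70 gene CPM under vehicle (0.35 ± 0.167, FDR 0.128, or 0.092 without Veh_WT 1) and 3.50 ± 0.59 and 4.18 ± 0.091 under sudemycin (0.21 ± 0.139, FDR 0.273). Snhg12 had 10.1 ± 1.54 and 10.8 ± 2.46 under vehicle (0.08 ± 0.153, FDR 0.709) and 10.8 ± 3.64 and 10.1 ± 1.39 under sudemycin (-0.14 ± 0.204, FDR 0.64).

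The ratio of junction reads to gene reads, the latter not necessarily all RNA of the host, joins both measures within each mouse. For Gas5 it was 1.62, 2.04, 1.28, 1.32 and 1.40 in vehicle-treated U2AF1(WT) mice, against 2.17, 2.36, 2.83, 3.21 and 2.88 in U2AF1(S34F) mice. All mutant mice were above all WT mice, with a log2 difference of 0.77 ± 0.14 (limma, FDR 0.0144). For Snhg1 it was 1.06, 1.34, 0.865, 0.826 and 1.14 against 1.56, 1.92, 2.14, 2.16 and 1.91, also without overlap (0.85 ± 0.127, FDR 0.00502). For Snhg3 it was 0.936, 1.27, 1.06, 1.02 and 0.929 against 1.78, 1.25, 1.12, 1.26 and 1.51, and the groups overlapped (0.35 ± 0.134, FDR 0.121). Without Veh_MUT 5 or Veh_WT 2 its FDR was 0.0819 or 0.0853. The Snhg3 junction reads are shared with Rcc1, whereas the gene reads are those of the Snhg3 row alone. Snhg12, with 0.758 ± 0.046 and 0.702 ± 0.032, was not called (-0.16, FDR 0.226). Under vehicle 2 of 4 hosts were therefore called, against 14.3% of 11559 genes, 7.76% being called higher.

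Under sudemycin the ratio of Gas5 was 1.72, 1.57, 1.73, 1.63 and 1.47 in U2AF1(WT) and 2.09, 2.83, 2.35, 2.50 and 2.11 in U2AF1(S34F) mice (0.59 ± 0.0645, FDR 0.000503). That of Snhg3 was 1.05, 0.942, 0.903, 1.01 and 1.01 against 1.45, 1.41, 1.44, 1.44 and 1.40 (0.59 ± 0.0844, FDR 0.000822). Neither gene's groups overlapped. That of Snhg1 was 1.65, 0.994, 1.004, 1.17 and 0.784 against 1.39, 2.03, 1.57, 1.70 and 1.67, with 1 WT mouse inside the mutant range (0.66 ± 0.184, FDR 0.0516). This call was lost without Sud_MUT 6 or 12 or Sud_WT 8 (FDR 0.105 to 0.116) and without the median scaling described below (FDR 0.112). Snhg12 was not called (0.17 ± 0.105, FDR 0.33). Of all 11460 genes, 18.1% were called and 9.78% were called higher, against 3 of 4 hosts, all higher. Snhg3, whose junction reads are shared with Rcc1, is among these. The median log2 difference of the 4 hosts was 0.56 under vehicle and 0.59 under sudemycin, against 0.0002 and 0.0035 for all genes. The ratio was centred on the median gene of each mouse. Without that step the calls among all genes shifted from 897 higher and 754 lower to 722 and 136 under vehicle, and from 1121 and 953 to 296 and 999 under sudemycin.

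**Figure D2:**
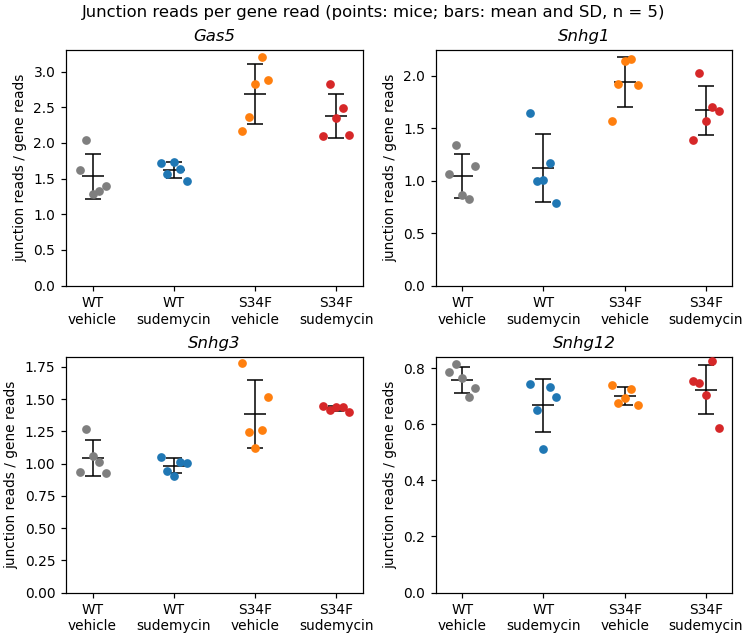
Junction reads per gene read (vertical axis, from 0) of the 4 hosts with gene rows in each mouse (points) of the 4 groups (horizontal axis), with mean and SD (bars, n = 5). Gas5 groups do not overlap between genotypes in either treatment, and Snhg12 stays between 0.667 and 0.758 on average in all groups.

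Junction by junction, the higher level of spliced RNA ran along the length of the called hosts. Of the 17 Gas5 junctions with at least 20 reads on average, 16 had a higher mean CPM in U2AF1(S34F) mice under vehicle and 17 under sudemycin, and in 14 each the groups did not overlap. All 9 junctions of Snhg1, all 3 of Snhg3 and all 4 of Snhg6 were higher in both treatments. Groups did not overlap in 4 and 3 of the Snhg6 junctions, in none and 1 of those of Snhg3, and in none and 1 of those of Snhg1. Of all 113670 junctions at that depth, 5.3% under vehicle and 6.29% under sudemycin were higher in every mutant mouse. Junctions of one gene share reads and are not independent. Snhg8 had 0 and 1 of 2, and Snhg12 1 and 2 of 4, higher in the mutant, with no pair of groups apart.

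Relative use of single junctions within a gene was then compared. Of 42 tested junctions of the 6 hosts, 3 differed in use between genotypes under vehicle (edgeR, FDR<10%), against 1.61% of 128295 junctions, and 1 of 40 under sudemycin, against 2.15% of 126791. In Gas5 the exon ending at 162966145 was joined to that starting at 162966951, skipping both exons between them, in 0, 27, 0, 0 and 16 reads of the U2AF1(WT) mice and 57, 79, 58, 61 and 98 reads of the U2AF1(S34F) mice under vehicle. Relative to the rest of the gene this junction was higher by 2.15 on the log2 scale (FDR 0.0119). The exon ending at 162966375 was joined to the same acceptor, skipping 1 exon, in 0, 4, 0, 0 and 0 reads against 33, 32, 26, 13 and 28 (log2 3.94, FDR 0.00842). Both junctions pair annotated splice sites that the annotation does not join, and under sudemycin their counts were 26, 7, 10, 6 and 17 against 52, 64, 93, 118 and 50, and 2, 0, 7, 3 and 7 against 24, 5, 26, 21 and 7. There the first was not called (log2 1.65, FDR 0.108) and the second did not pass the filter on low counts and was not tested. The first was called under sudemycin without Sud_WT 6 or 9 (FDR 0.0672 and 0.0867). In Snhg6 the junction from 9934101 to 9932798 had 26, 25, 20, 8 and 19 reads against 96, 125, 87, 89 and 117 under vehicle (log2 1.19, FDR 0.0459), and 8, 57, 48, 6 and 4 against 107, 81, 92, 85 and 47 under sudemycin, without a call. This Snhg6 call was lost without Veh_MUT 3 or 11 or Veh_WT 5 (FDR 0.128 to 0.18). In Snhg1 a junction between unannotated sites, 8797996 to 8798631, had 0, 0, 0, 8 and 0 reads against 39, 39, 29, 33 and 31 under sudemycin (log2 3.68, FDR 0.0274) and 0, 25, 0, 3 and 19 against 59, 80, 0, 42 and 60 under vehicle. That call was lost without Sud_MUT 2, 6 or 12 or Sud_WT 8 or 12 (FDR 0.159 to 0.192).

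Zeros in the junction table need care. Among all junctions of at least 50 reads on average, the share of values at exactly 0 was 0.0663% for annotated junctions, 0.292% for annotated sites newly paired and 30.0% for junctions with neither site annotated, the class of that Snhg1 junction, so a 0 there was read only as listed at 0. Of the 42 host junctions of at least 10 reads, 8 were at 0 in some mice.

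The splice sites concerned are shown with the last 17 intron bases before the terminal trinucleotide in lower case, that trinucleotide in capitals and the first 3 exon bases. The first 4 compete for a single Gas5 donor, at chr1:162966983, and the others take the reads of the junctions described above or lie beside them.
Gas5 162967255: gtattttcttttaattcTAGtta
Gas5 162967419: gtgccttaaatttttttCAGgta
Gas5 162967636: cggagtgtaatttcttaCAGgta
Gas5 162968356: gtcagtctttgttttctTAGggc
Gas5 162966339: taaagattcccccccccCAGgac
Gas5 162966680: taactatttgtttgttgTAGgtg
Gas5 162966951: tctttaatgtttttttcTAGgtg
Snhg6 9932798: acaaatattttaattttTAGgtg
Snhg1 8798631: cgatgctaacttctctaCAGgtt
Of the 33 acceptors of the 6 hosts with at least 20 reads, 20 had C before the final AG, 10 had T and 3 had A. Gas5 had 6 with C and 5 with T.

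The Gas5 acceptor at 162967255 opens a 41-nucleotide exon, chr1:162967255-162967295 on the plus strand, annotated in Gas5. It lies between the introns of SNORD78 (chr1:162967115-162967180) and SNORD79 (chr1:162967487-162967570). The exon is in capitals, with 20 intron bases before it and 10 after it.
Gas5 exon: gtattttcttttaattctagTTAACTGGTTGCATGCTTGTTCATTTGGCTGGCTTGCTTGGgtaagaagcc
Of the reads leaving the donor at 162966983, 43.2, 42.8, 46.9, 53.6 and 51.3% entered this exon in vehicle-treated U2AF1(WT) mice, against 35.5, 36.6, 32.3, 37.4 and 28.3% in U2AF1(S34F) mice. Every mutant mouse was below every WT mouse, and the difference was -13.5 percentage points. Under sudemycin the shares were 44.8, 40.1, 53.5, 49.4 and 47.0% against 37.2, 37.6, 32.2, 33.7 and 26.3%, again without overlap and with a difference of -13.6 points. Each difference had p = 0.00794 in a two-sided exact permutation test, the smallest that 5 against 5 mice can give, and 0.0688 after Benjamini-Hochberg adjustment over the 52 share tests made (13 shares in 4 comparisons). None of the 52 passed 5% after adjustment. The share was not part of the planned comparisons and was examined after the junction values were seen. Taken over both junctions of the exon, inclusion was 52.4 ± 3.97% against 40.7 ± 4.31% under vehicle (-11.7 points, exact permutation p = 0.00794) and 50.4 ± 6.13% against 39.6 ± 5.75% under sudemycin (-10.8 points, exact permutation p = 0.0317).

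The reads that did not enter the exon went to the acceptors behind it. The next one, with CAG at 162967419, took 41.5% in U2AF1(WT) and 49.4% in U2AF1(S34F) mice under vehicle (7.93 points, exact permutation p = 0.00794, adjusted 0.0688) and 43.5% and 50.1% under sudemycin (6.62 points, exact permutation p = 0.127, adjusted 0.33). The last one, with TAG at 162968356, took 5.33% in U2AF1(WT) mice under vehicle and more in U2AF1(S34F) mice (4.68 points, exact permutation p = 0.0159, adjusted 0.103) and 3.58% and 9.03% under sudemycin (5.45 points, exact permutation p = 0.00794, adjusted 0.0688), with this junction listed at 0 in 3 WT mice. The one between, with CAG at 162967636, took 5.42% and 6.1% under vehicle (exact permutation p = 0.397). So a TAG acceptor took a smaller share in the mutant and another TAG acceptor of the same donor a larger one. At the donor 162966145, TAG at 162966680 took 12.5% in U2AF1(WT) and 8.04% in U2AF1(S34F) mice under vehicle (exact permutation p = 0.0238, adjusted 0.124). Under sudemycin it took 12.3% and 9.56% (exact permutation p = 0.0317, adjusted 0.15). There CAG at 162966339 took 86.1% and 88.9% under vehicle (exact permutation p = 0.0159, adjusted 0.103), and 86.2% and 86.3% under sudemycin (exact permutation p = 0.905). A preference for CAG or TAG was not tested. The use of the junction into the 41-nucleotide exon, tested relative to the whole gene by edgeR, was not called (log2 -0.41 and -0.56, FDR 0.442 and 0.31). The Snhg6 acceptor 9932230 took 20.9% and 19.8% of its donor's reads under vehicle (exact permutation p = 0.722) and 19.5% and 18.4% under sudemycin (exact permutation p = 0.611). At the Snhg3 acceptor 131908158, the donor 131908535 gave 8.74% and 8.12% (exact permutation p = 0.897), then 4.8% and 10.7% (exact permutation p = 0.119).

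**Figure D3:**
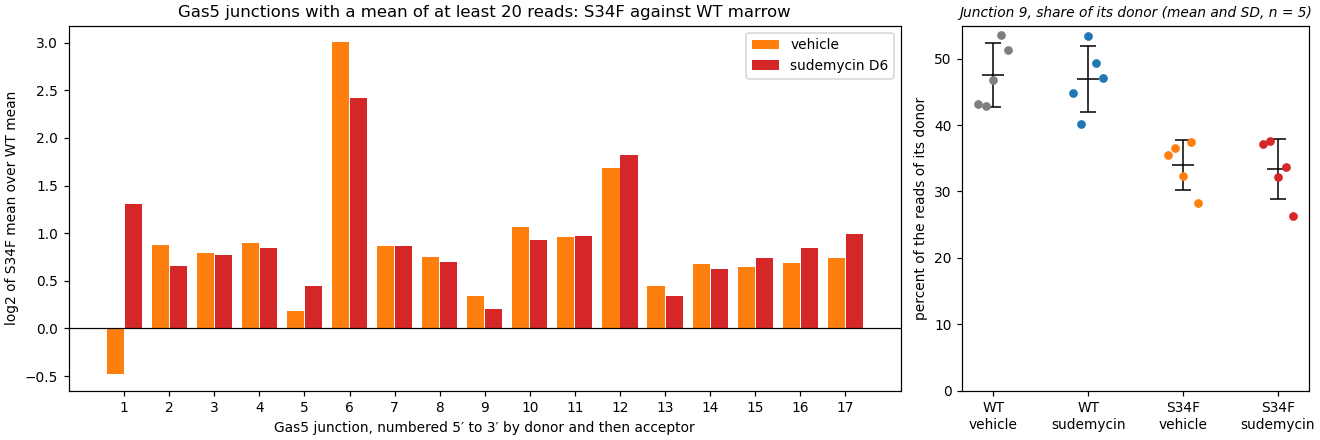
Left, log2 of the mean CPM in U2AF1(S34F) over that in U2AF1(WT) mice (vertical axis) for the 17 Gas5 junctions of at least 20 reads, numbered 5′ to 3′ (horizontal axis), under vehicle and sudemycin D6. Right, share of its donor's reads taken by junction 9, which enters the 41-nucleotide exon, in each mouse (points) with mean and SD (n = 5). Junction 9 differs by 0.34 and 0.20, less than most others, and its share is 40.1 to 53.6% in U2AF1(WT) and 26.3 to 37.6% in U2AF1(S34F) mice.

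In marrow taken the day after the last infusion, few differences of the hosts between sudemycin and vehicle were called. Earlier times were not sampled, so changes that had passed by then would be missed. Cell type markers also moved with sudemycin. Of 4 progenitor markers 2 in U2AF1(WT) and 3 in U2AF1(S34F) mice were called lower and 0 higher. Of 3 megakaryocyte markers 0 and 2 were lower, and of 4 monocyte markers 0 and 2 were higher. Their part in the host values was not tested. In U2AF1(WT) mice none of the 6 was called in junction reads and none had an unadjusted p below 0.05 (edgeR, DESeq2 also 0, against 1.13% of 13113 genes called). The means of Gas5 were 200.6 ± 23.7 CPM with vehicle and 161.7 ± 40.5 with sudemycin (log2 -0.32 ± 0.158, FDR 0.513), and the other 5 hosts had log2 differences of -0.30 to -0.08. In gene reads 0 of 4 were called, against 3.07% of 14763 genes. Gas5 (-0.35 ± 0.156, FDR 0.342) and Snhg1 (-0.34 ± 0.108, FDR 0.156) had unadjusted p-values of 0.0408 and 0.00693 by edgeR, and Snhg1 was called without Sud_WT 6 (-0.40, FDR 0.0988). In U2AF1(S34F) mice Gas5 fell from 338.1 ± 44.2 to 274.2 ± 30.0 junction CPM (log2 -0.31 ± 0.0941, FDR 0.0933), the sole call among 6 hosts, against 7.04% of 13120 genes. The groups overlapped, with mice at 303 to 408 and 241 to 323 CPM, and the call was lost without Veh_MUT 1, 3 or 11 or Sud_MUT 2, 6, 9 or 12 (FDR 0.132 to 0.187). In gene reads 0 of 4 were called by edgeR in U2AF1(S34F) mice and none had an unadjusted p below 0.05, against 10.8% of 14714 genes. Neither the ratio (0 of 4 hosts in both genotypes, against 0.278% of 11493 and 0.0174% of 11498 genes) nor the use of any host junction (0 of 37 and 0 of 42, against 0.0626% and 0.099% of junctions) was called. By unadjusted p below 0.05 these counts were 1 for the ratio in U2AF1(WT) mice (Snhg12, log2 -0.26), and 0 and 1 for junctions. The share entering the Gas5 exon changed by -0.589 points with the WT transgene (exact permutation p = 0.833) and by -0.617 points with the mutant one (exact permutation p = 0.817).

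In no host was the difference between genotypes called as differing between treatments. The SE of this interaction in junction reads was 0.184 (Snhg8) to 0.339 (Snhg12), so smaller interactions could be missed. The interaction in junction reads ranged from -0.05 to 0.22 on the log2 scale (edgeR, 0 of 6 called, FDR at least 0.948, none with an unadjusted p below 0.05, against 0.0145% of 13814 genes called), and that in gene reads was 0 of 4 called (Snhg1 0.31, FDR 0.799, none with an unadjusted p below 0.05, against 0.013% of 15392). Comparing sudemycin-treated U2AF1(S34F) with vehicle-treated U2AF1(WT) mice, which are groups already used above, Snhg6 (0.82 ± 0.151, FDR 0.00123), Gas5 (0.45 ± 0.097, FDR 0.00299), Snhg3 (0.62 ± 0.155, FDR 0.0076) and Snhg1 (0.31 ± 0.128, FDR 0.078) were higher in junction reads, 4 of 6 against 42.8% of 13060 genes. The Snhg1 call was lost without Sud_MUT 2, 10 or 12 or Veh_WT 1, 3 or 4 (FDR 0.108 to 0.163). In gene reads Snhg1 was lower (-0.30 ± 0.112, FDR 0.0429), 1 of 4 hosts against 50.2% of 14761 genes, and without Veh_WT 2 Gas5 was called lower too (-0.21, FDR 0.0934). The gene-read call of Snhg1 was lost in a single model of all 20 mice (FDR 0.118), and its groups overlapped in both measures.

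**Figure D4:**
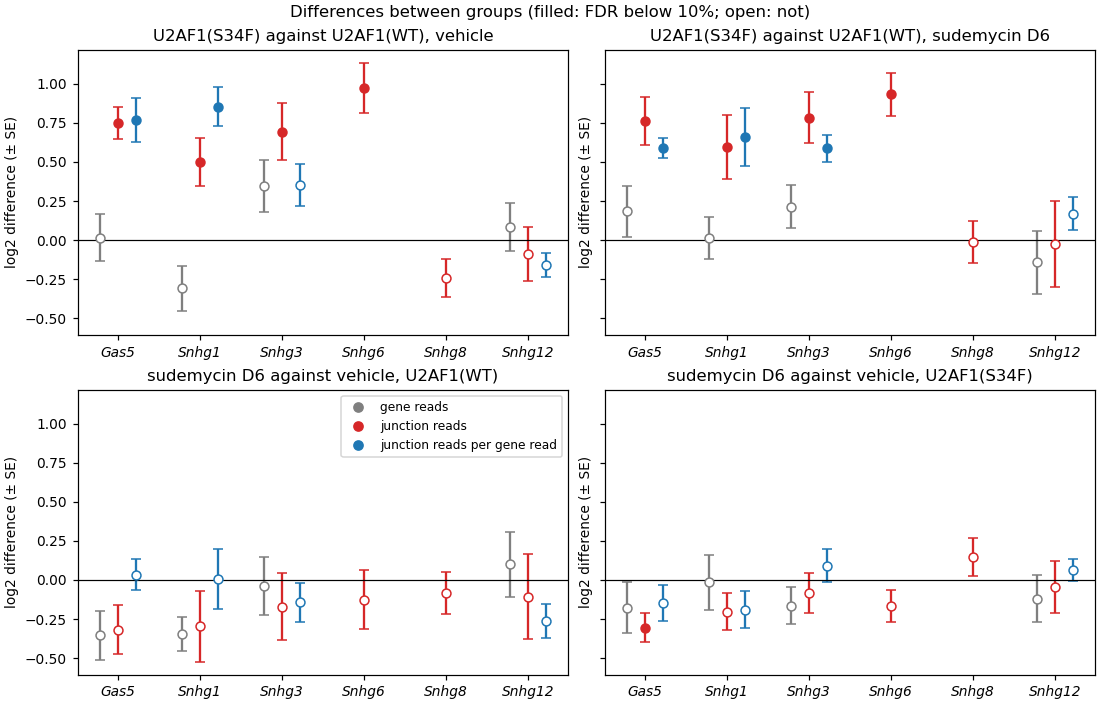
Log2 difference ± SE (vertical axis) of each host (horizontal axis) in the comparisons between groups, for junction reads, gene reads and their ratio (colours). Filled points had FDR below 10%. Junction reads of Gas5, Snhg1, Snhg3 and Snhg6 are filled and above 0 in both comparisons between genotypes.

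Few of the snoRNAs themselves were counted. All 20 resident snoRNA genes that lie inside an annotated exon of their host had 0 reads in every mouse, and all 5 that do not had reads. Small RNAs below the read length are also poorly captured by this library type. Of all 713 annotated snoRNA genes shorter than a read 11.8% had any read, and of the 839 others 20.5% had. Reads on a snoRNA gene can come from the snoRNA or from unspliced host RNA. Snora73a had a mean of 12702 reads per mouse, Snora73b 4461, AC124005.1 175 and Snora16a 30.3, while AC102570.1 had 0.7.

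AC124005.1, in the intron of Snhg8, was higher with U2AF1(S34F), although Snhg8 junction reads were not called. It had 2.38, 2.10, 2.46, 3.14 and 2.25 gene CPM in U2AF1(WT) and 2.92, 3.73, 6.37, 7.96 and 2.899 in U2AF1(S34F) mice under vehicle (log2 0.93 ± 0.273, FDR 0.0215). Under sudemycin it had 2.11, 2.46, 1.62, 1.24 and 2.38 against 3.52, 3.73, 3.73, 3.28 and 6.07, without overlap (log2 1.002 ± 0.232, FDR 0.00808). Snora73a had 211.5 ± 20.8 and 288.4 ± 57.5 CPM under vehicle (0.43 ± 0.127, FDR 0.021) and 216.4 ± 35.1 and 253.3 ± 21.6 under sudemycin (log2 0.19, FDR 0.221). Its near-copy Snora73b had 88.6 ± 7.01 and 90.6 ± 23.2 (log2 0.02, FDR 0.945) and then 89.0 ± 15.6 and 73.7 ± 3.86 CPM (-0.31 ± 0.106, FDR 0.0477), a call lost without Sud_MUT 2 or 9. The copies differ at only 7 positions, and how well reads were split between them was not tested. Snora16a, of Snhg12, was called under sudemycin (0.341 ± 0.175 against 0.649 ± 0.107 CPM, log2 0.81 ± 0.33, FDR 0.085) but not under vehicle (0.52, FDR 0.271), and that call was lost under 9 other settings, among them leaving out Sud_MUT 2, 6, 10 or 12 or Sud_WT 8, 9 or 10 (FDR 0.109 to 0.153).

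**Figure D5:**
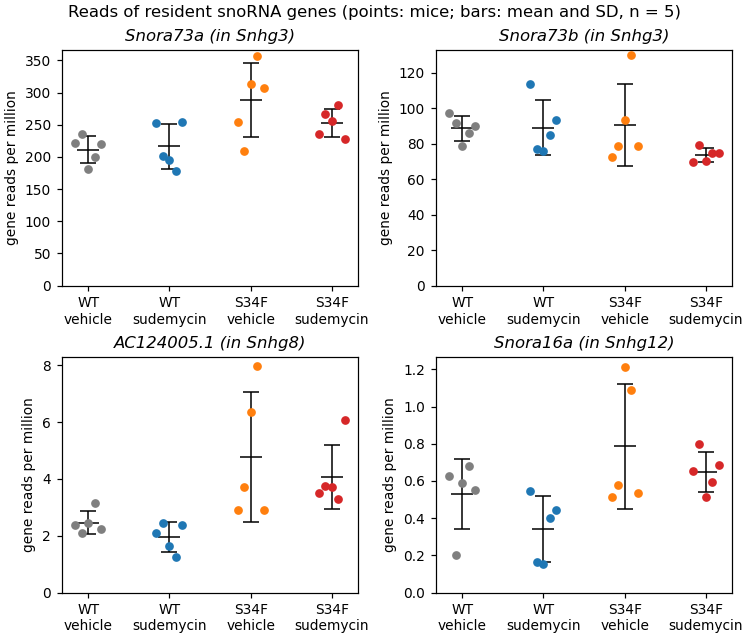
Gene reads in CPM (vertical axis, from 0) of the 4 resident snoRNA genes with at least 10 reads on average in each mouse (points) of the 4 groups (horizontal axis), with mean and SD (bars, n = 5). AC124005.1 is higher in every U2AF1(S34F) than in every U2AF1(WT) mouse under sudemycin, from 3.28 to 6.07 against 1.24 to 2.46.

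Related genes were read from lists chosen by function. Of 12 other non-coding snoRNA hosts tested in gene reads under vehicle, 3 were called higher in the mutant (Snhg7 log2 0.39, Zfas1 0.30 and Snhg4 0.44) and 1 lower (Snhg15 -0.51), with a median of 0.18 against 0.0021 for all genes. Zfas1 alone was called under sudemycin (0.38, 1 of 11). Neither count exceeded the share over all genes, 39.5% and 36.8%. In junction reads, 2 of 11 were called higher under vehicle, Snhg4 (0.68) and Zfas1 (0.38), and under sudemycin Zfas1 was higher (0.36) and Snhg20 lower (-0.70), with medians of 0.18 and 0.13. In the ratio none of 10 was called under vehicle, and Snhg20 (-0.92) and Snhg16 (-0.44) were lower under sudemycin. In junction reads the medians of the 6 members were 0.60 and 0.68 against 0.18 and 0.13 for these other hosts, whereas in gene reads those of the 4 members with a row were 0.05 and 0.10 against 0.18 and 0.19. These differences were not tested.

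Protein-coding hosts, many of them ribosomal protein and translation genes, were called higher in gene reads in 19 of 36 cases under vehicle and 22 under sudemycin, with 0 and 1 lower and medians of 0.28 and 0.30, while 2921 of all 14817 genes and 2518 of all 14677 were called higher. The largest differences were those of Rpl12 (log2 0.58 and 0.60) and Rps20 (0.55 and 0.55), components of the large and small ribosomal subunit, followed under vehicle by Matr3 (0.51), an RNA-binding nuclear matrix protein, and Nop58 (0.51), a core protein of C/D box snoRNPs. In junction reads 20 and 21 of 36 were higher and 1 and 2 lower (16.6% and 14.8% of all genes were higher), whereas in the ratio 2 and 6 were higher and 2 and 3 lower (7.76% and 9.78% of all genes were higher). Of 13 genes for snoRNP proteins and their assembly, 3 were called higher under vehicle (Nop58, Nop10 0.40 and Ruvbl2 0.23) and 1 under sudemycin (Nop10 0.55), and none lower, a smaller share than the 39.5% and 36.8% of all genes called.

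Among 17 NMD factors, 5 were called higher and 3 lower under vehicle, and 3 and 3 under sudemycin, near the 39.5% and 36.8% of all genes called. The largest under vehicle were Casc3 (-0.53), Magoh (0.48) and Magohb (0.45), all of the exon junction complex, and Upf3b (0.32), which links that complex to the decay machinery. Of 6 stress-induced transcripts that are also known targets of NMD, none was higher in the mutant. Atf3 (log2 -3.85, FDR 4.43e-07), Atf4 (-0.90), Gadd45a (-0.81) and Ddit3 (-0.75) were lower under vehicle, and all 6 were lower under sudemycin (Atf3 -1.46, FDR 0.000657). Atf3 was also lower with sudemycin in U2AF1(WT) mice (-2.41, FDR 6.07e-05), and its interaction was 2.38 (edgeR, FDR 0.000994). In junction reads 3 of these transcripts were called lower under vehicle, 4 under sudemycin and none higher. Of all genes, 32.6% and 30.9% were called there in either direction. Decay itself was not tested. In the ratio of junction to gene reads Atf3 (log2 1.10, FDR 0.000494) and Ddit3 (0.75, FDR 0.000287) were higher and Gadd45a lower (-0.25, FDR 0.0619) under vehicle. Atf3 was higher under sudemycin (0.69, FDR 0.065). Of all genes, 14.3% and 18.1% were called in this ratio. In gene reads sudemycin called none of the other non-coding hosts in either genotype, and of the protein-coding hosts only Matr3 in U2AF1(S34F) mice (-0.24).

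Genes whose levels over the 20 mice were most like those of each host, by Pearson correlation of log2 CPM, are given as a description, since mice share genotype and treatment. In gene reads, over 9768 genes, they were Trim44 (0.938), Snhg5 (0.934), itself a snoRNA host, and Pus7 (0.914) for Gas5, and Ankrd10 (0.828), Trub1 (0.824) and Armcx3 (0.824) for Snhg1. For Snhg3 they were Clns1a (0.866), Coil (0.856) and Zfp637 (0.852), and for Snhg12 Nle1 (0.93), Nop2 (0.927) and Gpatch4 (0.897). Pus7 and Trub1 are pseudouridine synthases, Coil is coilin of Cajal bodies, and Nop2 and Nle1 act in assembly of the large ribosomal subunit. No shared function was tested. In junction reads, over 8750 genes, they were Eif3e (0.959), 2610101N10Rik (0.952) and Skp1a (0.951) for Snhg6, and Fam53a (0.832), Arf4 (0.824) and Phlpp2 (0.82) for Snhg8.

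Variation between mice of one genotype was compared between hosts. Over 10 mice, Pearson's r of log2 junction CPM was above 0 for all 15 pairs of hosts in each genotype, with a median of 0.637 in U2AF1(WT) (0.165 to 0.884) and 0.486 in U2AF1(S34F) mice (0.123 to 0.864). How often pairs of other genes correlate this way in these libraries was not computed, so this is not particular to the hosts. Of these 30 relations, 4 in U2AF1(WT) and 2 in U2AF1(S34F) had an adjusted permutation p below 0.05 by Pearson's r. By Spearman's rho no pair passed in U2AF1(S34F) mice (lowest adjusted p 0.0541, permutation) and Gas5 with Snhg12 did not in U2AF1(WT) mice (0.0808). Pairs with Snhg8 were the least stable. Snhg1 with Snhg8 in U2AF1(WT) mice had rho = -0.0424, and r without the 2 farthest mice fell below 0 for that pair (-0.331), for Snhg8 with Snhg12 in U2AF1(WT) (-0.074) and for Snhg8 with Snhg3 (-0.0726) and Snhg6 (-0.59) in U2AF1(S34F) mice. The strongest joined Snhg1 and Snhg3 in U2AF1(WT) mice (r = 0.884, rho = 0.867, permutation p = 0.00097, adjusted 0.0103), and r was 0.796 without the 2 mice farthest from the median. In the same mice Gas5 correlated with Snhg3 (r = 0.842, rho = 0.927, permutation p = 0.00123, adjusted 0.0103, 0.758 without 2 mice), Snhg1 (r = 0.83, rho = 0.879, permutation p = 0.00056, adjusted 0.0103, 0.764 without 2 mice) and Snhg12 (r = 0.815, rho = 0.709, permutation p = 0.00594, adjusted 0.0297, 0.449 without 2 mice). In U2AF1(S34F) mice the relations were those of Gas5 with Snhg1 (r = 0.864, rho = 0.806, permutation p = 0.00137, adjusted 0.0103, 0.576 without 2 mice) and of Snhg1 with Snhg12 (r = 0.816, rho = 0.77, permutation p = 0.00451, adjusted 0.0271, 0.567 without 2 mice). Each genotype pools both treatments, which hold 5 mice each and are too few for a value of their own, and all values of a mouse come from a single library.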

How the data were processed

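Total RNA of bulk bone marrow cells from 20 mice (4 groups of 5) had been depleted of ribosomal RNA and sequenced from stranded libraries as paired 126-base reads. The authors aligned reads to mm9/NCBI build 37 (TopHat2 2.0.8 and SAMtools in the submitters' processing notes) and deposited raw counts per gene (37620 genes) and per exon-exon junction (554616 junctions). The counting program was not given in the sources used here. Of the genes, 37205 matched GENCODE vM1. RefSeq tables (GRCm38.p6) served for names and neighbours only.

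The members and lists were chosen with earlier results of these data known. Gene reads were tested per pair of groups with edgeR 4.0.16 (quasi-likelihood, TMM, filterByExpr, prior count 2, FDR below 10%), junction use with edgeR's diffSpliceDGE, and log2 ratios of junction to gene reads (pseudocount 0.5, at least 20 reads on average) with limma 3.58.1, all over the whole table. Every member with a row passed the filters. Junction reads summed per gene (edgeR) and splice-site shares (exact permutation, scipy 1.17.1) were added after the data were seen. Unnamed junctions lying in 1 gene (5571) were given its name. CPM used TMM-scaled library sizes. R was 4.3.3 and Python 3.11.15. Correlations used 100000 permutations.

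Depth was 41145892 to 62138138 gene reads per mouse. Within-group pairs differed by far more than sampling noise (chi-square per gene 22.2 to 217 over 40 pairs, where 1 is noise), so all mice were counted. On simulated counts with 200 genes changed by 1 on the log2 scale, 93.5% were recovered among 13754 genes, 50% for junction use among 113123 junctions and 99.5% for the ratio among 10798 genes, all simulated on U2AF1(S34F) against U2AF1(WT), vehicle. Alternatives were DESeq2 1.42.0, other scaling and filters, 1 model of all groups, a block for replicate numbers and omission of single mice. Named were the 6 members, resident snoRNAs of at least 10 reads on average and the 3 genes most alike. Junctions were named if called or strongest, or if they took at least 5% of a site beside a stronger one. The last rule held for junctions of at least 5 reads on average. Up to 4 called genes per list and comparison were named by log2 difference. Values of the study's own comparisons were not used.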

Additional observations from a re-analysis of the deposited data

Results flagged for a closer look

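Within groups of 5 mice, a single mouse stood apart from the other 4 in 4 of 72 group values examined (Dixon's test, which marks about 1 in 20 groups by chance). Snhg6 had 19.3 junction CPM in the sudemycin-treated U2AF1(S34F) mouse 10, against 15.02 to 16.25 in the other 4. Snhg8 had 10.77 junction CPM in the vehicle-treated U2AF1(S34F) mouse 7, against 14.96 to 16.38. AC124005.1, the snoRNA gene in Snhg8, had 6.066 gene CPM in the sudemycin-treated U2AF1(S34F) mouse 12, against 3.282 to 3.735, and Snora16a had 0.2024 gene CPM in the vehicle-treated U2AF1(WT) mouse 2, against 0.5527 to 0.6814.

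A junction on the minus strand of chr4, from 131908757 to 131908415, joined the near-identical Snora73a and Snora73b inside Snhg3. It was listed with a mean of 73 reads per mouse (0 to 781) and lies outside the comparisons above. The copies differ at 7 of 205 positions.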

How the results depend on the processing

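No called value reversed its direction under any setting. Counts of members called stayed within 1.5 times of those reported in 281 comparisons with alternatives and moved in 30. In gene reads, the 0 members called between genotypes under vehicle became 1 in one model over all groups, 0 to 1 when leaving out mice and 4 when junction reads were counted. Under sudemycin 0 became 4 with junction reads. For sudemycin in U2AF1(WT) mice 0 became 0 to 1 when leaving out mice, and in U2AF1(S34F) mice 0 became 1 with junction reads. For the combined contrast 1 became 0 in one model, up to 2 without a mouse and 4 with junction reads. The single junction-read call of sudemycin in U2AF1(S34F) mice, Gas5, became 0 to 1. In junction use, 3 became 5 with limma under vehicle, and 1 became 3 with limma, 0 at a mean of at least 20 reads and 0 to 2 without a mouse under sudemycin. For sudemycin in U2AF1(S34F) mice 0 became 0 to 1. Over single genes, snoRNAs and junctions, 1699 of 1760 alternatives left the result as it was, called or not called, while 47 lost a call and 14 gained one. The 1699 include features that were not called and stayed so, and do not measure how stable the calls are.

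Replicate numbers did not pair mice between genotypes (correlation of deviations 0.0662, 0.133 and -0.0479 for vehicle numbers 1, 3 and 5, and 0.0731, 0.116, 0.211 and -0.111 for sudemycin numbers 6, 9, 10 and 12, own number best in 2 of 7). With a replicate block the ratio under vehicle called 1 member in place of 2 (Gas5 0.70, FDR 0.241), Snhg1 junction reads under sudemycin had FDR 0.132, and the junction-use calls in Snhg6 and Snhg1 had FDR 0.503 and 0.226. Among all genes the block left 2486 of 4022 junction-read calls under sudemycin, 429 of 2060 and 788 of 2731 calls of junction use, and 397 of 1651 and 706 of 2074 of the ratio.

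Other counts over all features also moved. For sudemycin in U2AF1(WT) mice gene reads gave 453 calls, 811 with DESeq2 and 1072 in one model, and junction reads 148 and 442 with DESeq2. In U2AF1(S34F) mice gene reads gave 1588 and 788 in one model, and junction reads 924 and 1501 with DESeq2. The interaction gave 2 calls in gene reads against 116 with DESeq2, 10 unfiltered, 8 with a CPM filter and 1 on autosomes, and 2 against 51 with DESeq2 in junction reads. Junction use between genotypes gave 5765 and 8558 calls with limma. For sudemycin it gave 80 calls in U2AF1(WT) mice, 156 at a mean of at least 20 reads and 37 with annotated sites, and 127 in U2AF1(S34F) mice, 209 with limma, 200 at 20 reads and 75 with annotated sites. The unscaled ratio gave 858 and 1295 calls between genotypes. The cause of these shifts was not tested. Snhg3 passed the threshold in gene reads under vehicle in one model (FDR 0.0685) and in the unscaled ratio (FDR 0.0858), and Snhg1 missed it in the unscaled ratio under sudemycin (FDR 0.112). At a median of 281 junction reads per mouse, Snhg3 is the thinnest member.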
